A study of Mus musculus with 9 samples.

Results

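The nuclear genes for the subunits of the mitochondrial respiratory chain were examined in neurospheres of adult olfactory bulb stem cells (aOBSCs) from mice, which had received FGF-2 and EGF at 3 different intervals. Members were the probe sets whose only annotated gene symbol was that of a complex I subunit of the Ndufa, Ndufb, Ndufc, Ndufs or Ndufv families, of Sdha to Sdhd, of the Uqcr genes, of the Cox4 to Cox8 genes or of the Atp5 genes. This gave 164 probe sets for 81 genes, out of 45037 probe sets and 18193 genes on the array, and another 9 probe sets that carried several symbols were left out. By complex, there were 33 genes for complex I, 4 for complex II, 8 for complex III, 11 for complex IV and 17 for complex V, with 8 tissue-specific isoforms of complex IV kept apart.

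Control cultures (Ctr) received both factors every day, C2 cultures every 2 days and C4 cultures every 4 days, at 20 ng/ml each, and 3 arrays were hybridised for each condition, labelled as biological replicates. The cultures had been taken to passage 3 with daily factors and were then carried through 2 further passages under the 3 schemes, and RNA was collected after 7 days in culture, which was 1 day after the last addition in C2 and 3 days after it in C4. The donors were mice, CD1 animals of 4 to 15 months or adult C57Bl/6 animals, with ages of 7 and 15 months given for the cultures used for expression analysis; which array came from which strain, age or culture is not given in the sources used here. The arrays were whole-sphere measurements, so fewer cells of a type and less RNA per cell cannot be told apart.

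The respiratory chain oxidises NADH (complex I) and succinate (complex II), passes the electrons through coenzyme Q, complex III and cytochrome c to oxygen at complex IV, and pumps protons whose return drives ATP synthesis at complex V. Most subunits are encoded in the nucleus, a small core is encoded in mitochondrial DNA, and several complex IV subunits exist as a widespread form and a form typical of heart, skeletal muscle, lung, testis or another tissue. Quiescent neural stem cells and neurons are known to differ in how much they rely on this chain compared with glycolysis.

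Values are GCRMA levels on the log2 scale, where a difference of 1 is a doubling, and the probe set with the highest mean over the 9 arrays stands for its gene. The subunit genes were bright: 70 of 81 had a mean level over 10, with a median over genes of 11.59, against a median of 2.63 over all probe sets. Many probe sets read about 2.27 on every array, and a mean under 4 is called near the floor here. Of the 81 member genes, 6 were near it: Ndufb4, at a mean of 2.27 in every condition, and the isoforms Cox4i2, Cox7a1, Cox7b2, Cox8c and Ndufa4l2. In the stem and progenitor list, Sox2 (mean level 13.00), Olig2 (12.13), Fabp7 (14.63) and Vim (14.68) were high. Nes, for nestin, was at 5.83. Of 11 measured neuronal genes, 2 had a mean over 4, Map2 (12.18) and Gad1 (10.00). The others, among them Tubb3, Dcx, Rbfox3, Syt1, Snap25 and Stmn2, were near the floor.

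In C4 against Ctr the subunit genes were shifted upwards by a small amount. The median difference was 0.13 over the 81 genes, with 64 genes above 0 and 12 below it, compared with a median of 0.03 over the 2187 probe sets of the whole array with a mean over 10. By limma over all probe sets, 28 of the 164 member probe sets were higher and 1 was lower, where 3.78% of all probe sets were called higher and 2.51% lower. Because bright probe sets are called more often, the same count was made above a mean of 10: 27 of 115 members were higher (23.5%) against 16.0% of all such probe sets, and 1 was lower (0.87%) against 13.5%. The arrays of C4 lay wholly above those of Ctr for 60 of these 115 and wholly below for 4, against 31.7% and 26.1% of all bright probe sets. By gene, 20 were called higher, with differences of 0.14 to 0.64, and 1 lower.

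In C2 against Ctr the subunit genes were shifted upwards as well, with all complex I genes above Ctr. The median difference was 0.16 over the 81 genes, with 69 above 0 and 7 below, against 0.03 over all bright probe sets. Of the 164 member probe sets, 20 were called higher and 0 lower, where 1.13% and 0.577% of all probe sets were; without the 2 probe sets of Cox6a2 the count of higher ones was 18. Above a mean of 10 the members gave 17 of 115 higher (14.8%) against 6.68%, and 0 lower against 3.52%, and the arrays did not overlap for 81 of 115 that were higher and 0 that were lower, against 30.5% and 18.5%. By gene, 13 were higher, 12 of them other than Cox6a2, with differences of 0.16 to 0.39 for those 12. Both comparisons use the same 3 Ctr arrays, and 6 genes were called higher in both, namely Ndufa9, Ndufa10, Ndufs5, Sdhb, Atp5g3 and Cox8a.

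Calls in both comparisons depended on single arrays and on the setting. Without one array, the 20 higher member probe sets of C2 became 5 (without C2 replicate 1), 6 (C2 replicate 2), 5 (C2 replicate 3), 6 (Ctr replicate 1) or 4 (Ctr replicate 2), and the 28 of C4 became 18 (without C4 replicate 2), 18 (Ctr replicate 1) or 16 (Ctr replicate 2). A robust variance prior left 9 in C4 and 2 in C2, and a filter on dim probe sets gave 56 and 46. Without probe sets of suffix _s_at, _x_at or _a_at, whose probes can match several transcripts, the C2 count was 10. Of the named members called in C4, Sdhb, Uqcrh, Cox8a, Cox8b and Atp5g3 (5 of 16) kept the call under all 13 alternatives, and of those called in C2, Cox6a2 left aside, 0 of 8 did. Of the named genes of the pathway lists given further on, Cerox1 and Higd1a (2 of 17) kept their call in C4 under all 13, and 0 of 7 did in C2. The medians ran from 0.14 to 0.17 in C2 and 0.10 to 0.15 in C4 when single arrays were left out.

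**Figure D1:**
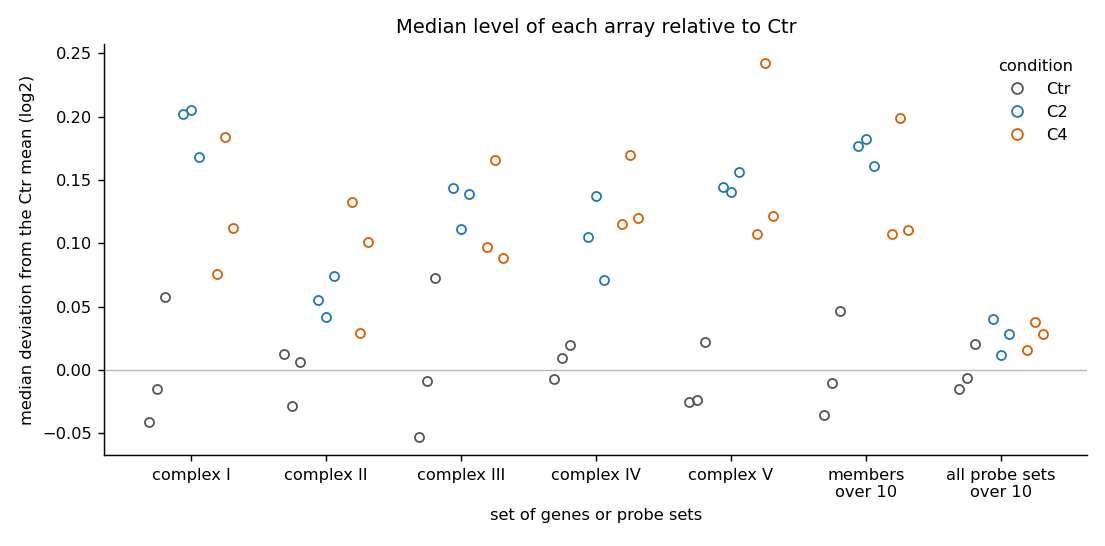
Median over each set of the deviation from the Ctr mean (log2, vertical axis) for every array, with 3 arrays per condition as open circles. For complexes I to V and for the members over a mean of 10, every C2 and C4 array lies above 0, and the 3 C2 arrays of complex I lie between 0.17 and 0.21; the medians of all bright probe sets stay between 0.01 and 0.04 in C2 and between 0.02 and 0.04 in C4.

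Complex I, the NADH dehydrogenase, had 33 genes, and all 33 were above Ctr in C2 (median 0.19), Ndufb4 at the floor by 0.001, with 7 called. In C4, 28 were above Ctr (median 0.13) and 7 were called. The called genes were 21.2% of the complex in either condition, against 6.68% of all bright probe sets called higher in C2 and 16.0% in C4. Ndufa9, an accessory subunit next to the site of coenzyme Q reduction, had levels of 11.74, 11.76 and 11.79 in Ctr, 11.94, 11.90 and 11.93 in C2 and 11.92, 11.94 and 11.91 in C4. Every array of C2 and C4 lay above every Ctr array, and the differences were 0.16 in both (SE 0.019; limma adjusted p = 0.0163 for C2 and 0.00458 for C4). Ndufa10 and Ndufs5, further accessory subunits, were called in both as well: Ndufa10 differed by 0.25 in C2 (adjusted p = 0.0138) and 0.20 in C4 (0.00964), and Ndufs5 by 0.25 (0.0267) and 0.26 (0.00854). With the mean of its probe sets, which takes in one near the floor (mean 3.46), Ndufa10 differed by 0.15 in C2 and 0.10 in C4 and kept both calls. Ndufb3, an accessory subunit of the membrane arm, had the largest C4 difference of the complex, 0.33 (SE 0.055; adjusted p = 0.0176), and Ndufs4, a subunit needed for a stable NADH-oxidising module, followed with 0.28 (adjusted p = 0.0415) on its brightest probe set. The mean of the Ndufs4 probe sets differed by 0.10 and was not called (adjusted p = 0.152). It takes in dim probe sets with means of 5.50, 4.89 and 2.29.

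The conserved core of complex I, which carries the flavin and the iron-sulphur clusters, was represented by Ndufv1, Ndufv2, Ndufs1, Ndufs3, Ndufs7 and Ndufs8. These 6 genes were all above Ctr in C2 (median 0.20), with 3 called, where 6.68% of all bright probe sets were called higher. In C4, 0 were called (median 0.09), where 16.0% of all bright probe sets were called higher. All 6 were lower in C4 than in C2 (median -0.13), 2 of them by the test. Among all probe sets 2.39% were called lower. The share of bright probe sets, which are called more often, was not counted for C4 against C2. Ndufv1, which binds NADH and the flavin, had levels of 10.50, 10.49 and 10.46 in Ctr, 10.68, 10.67 and 10.63 in C2, and 10.45, 10.38 and 10.47 in C4. On this brightest probe set all C2 arrays were above the others, while Ctr and C4 overlapped. C2 differed from Ctr by 0.17 (limma adjusted p = 0.0431) and C4 from C2 by -0.22 (SE 0.028, adjusted p = 0.00716). The C2 call held under 2 of the 13 alternatives. All 3 Ndufv1 probe sets lay above Ctr in C2, while in C4 1 lay above Ctr and 2 below. On the 1 above (mean 10.34), the C4 arrays stood wholly above Ctr, by 0.11 without a call (adjusted p = 0.214), and overlapped with C2. Ndufs8, another iron-sulphur subunit, took the course of the brightest Ndufv1 probe set on its own brightest one, with 0.20 in C2 (adjusted p = 0.0346), 0.05 in C4 (0.619) and -0.15 for C4 against C2 (0.0411). The 27 accessory genes had medians of 0.19 in C2 and 0.16 in C4, with 9 above and 18 below 0 in C4 against C2.

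Complex II, succinate dehydrogenase, links the chain to the tricarboxylic acid cycle. Of its 4 genes, Sdhb, the iron-sulphur subunit, was higher in both conditions, with levels of 11.704, 11.615 and 11.668 in Ctr, 11.964, 11.996 and 12.019 in C2 and 12.060, 12.107 and 12.009 in C4. Neither C2 nor C4 overlapped with Ctr; Sdhb rose by 0.33 in C2 (SE 0.033; limma adjusted p = 0.0099) and by 0.40 in C4 (adjusted p = 0.00132). The flavoprotein gene Sdha differed from Ctr by 0.10 in both C2 and C4 and was not called (adjusted p = 0.48 and 0.349). On their brightest probe sets, Sdhc differed by -0.15 in C2 and 0.075 in C4, and Sdhd by 0.01 and -0.04. Neither was called. Over the 4 genes the median was 0.06 in C2 and 0.09 in C4.

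Complex III, the cytochrome bc1 complex, had 8 genes with medians of 0.13 in C2 and 0.14 in C4. Of these, 2 genes were called higher in C4 and 0 in C2, where 16.0% and 6.68% of all bright probe sets were. Uqcrh, the hinge subunit that lies beside cytochrome c1, had the largest C4 increase of all 81 genes. Its levels were 11.87, 11.93 and 12.03 in Ctr, 12.08, 11.98 and 12.07 in C2, and 12.51, 12.68 and 12.57 in C4. The C4 arrays stood above all 6 others; the difference was 0.64 against Ctr (SE 0.059; limma adjusted p = 0.00187) and 0.54 against C2 (adjusted p = 0.00395), whereas C2 differed from Ctr by 0.10 (adjusted p = 0.735) with overlapping arrays. A second Uqcrh probe set differed from Ctr by 0.36 in C4 (adjusted p = 0.00646) and by 0.03 in C2. Uqcrfs1, the Rieske iron-sulphur protein, was 0.14 higher in C4 (adjusted p = 0.0245). Uqcrq was lower in C4 than in C2, by -0.39 (adjusted p = 0.0387), and Uqcr11 was not called in C4 (0.20, adjusted p = 0.267).

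Complex V, the ATP synthase, had 17 genes with a median of 0.13 in C2 and 0.18 in C4. The genes Atp5g1 and Atp5g3 encode an identical mature c subunit of the rotating ring behind different import sequences. Atp5g3 had levels of 13.25, 13.18 and 13.18 in Ctr, 13.48, 13.44 and 13.46 in C2, and 13.47, 13.52 and 13.45 in C4, so that both conditions lay above Ctr, by 0.25 in C2 (limma adjusted p = 0.0118) and 0.28 in C4 (SE 0.027; adjusted p = 0.0024). Atp5g1 had levels of 10.50, 10.62 and 10.66 in Ctr, 10.96, 11.03 and 10.96 in C2, and 10.53, 10.66 and 10.50 in C4. Only the C2 arrays stood apart for Atp5g1: C2 was 0.39 above Ctr (adjusted p = 0.0303), and C4 was -0.42 from C2 (SE 0.056; adjusted p = 0.00883) and -0.03 from Ctr. With the mean of its probe sets the C2 difference of Atp5g1 was 0.26 and was not called (adjusted p = 0.0925). No other Atp5g1 probe set had a mean over 4, so this mean takes in signal near the floor. Atp5a1, the alpha subunit of the catalytic head, differed from Ctr on its brightest probe set by 0.24 in C4 (adjusted p = 0.0296) and by -0.01 in C2. Its 3 probe sets above a mean of 4 ran from -0.13 to 0.24 in C4, with 2 above and 1 below 0, and 1 was called. Atp5mpl, a small subunit of the membrane part, differed from Ctr by 0.40 in C4 (adjusted p = 0.0323) and 0.01 in C2. Atp5e was 0.33 above Ctr in C4 but was not called (adjusted p = 0.0553).

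**Figure D2:**
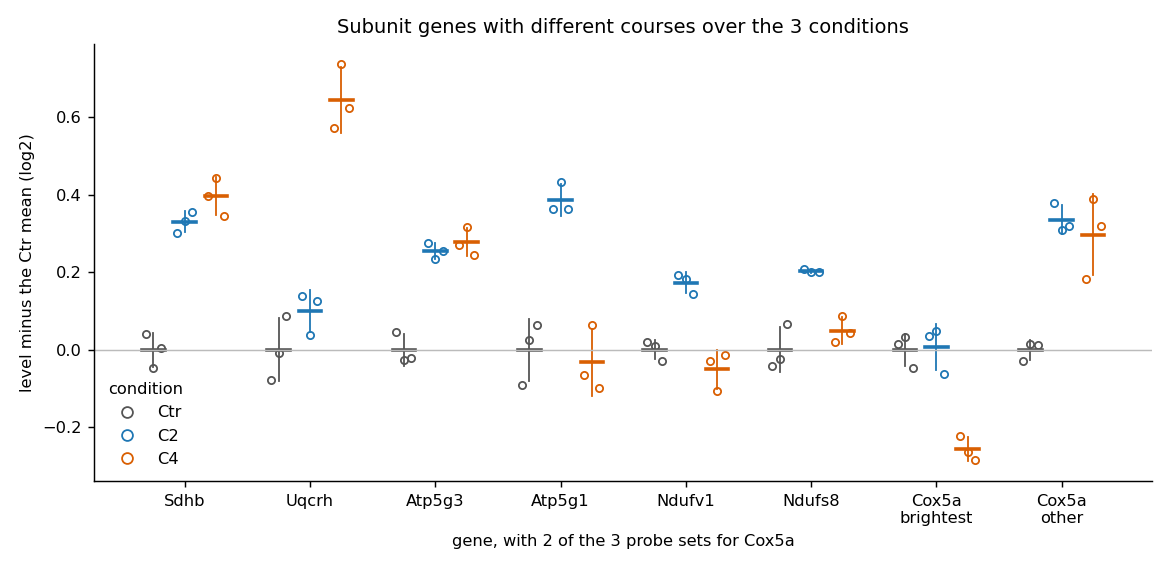
Level of each array minus the Ctr mean of the same probe set (log2, vertical axis) for 7 subunit genes; open circles are arrays, thick bars means and thin bars 1 SD of 3 arrays. Sdhb and Atp5g3 lie above Ctr in C2 and C4, Uqcrh in C4, and Atp5g1, Ndufv1 and Ndufs8 in C2, while 2 probe sets of Cox5a lie on opposite sides of Ctr in C4.

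Complex IV, cytochrome c oxidase, had 11 widespread subunit genes, with medians of 0.10 in C2 and 0.14 in C4. In C4, 5 were called higher and 1 lower, and in C2 2 were higher. Among all bright probe sets, 16.0% were called higher and 13.5% lower in C4, and 6.68% higher in C2. Cox8a, a small membrane subunit, had levels of 10.67, 10.62 and 10.60 in Ctr, 10.81, 10.82 and 10.81 in C2, and 10.94, 10.93 and 10.90 in C4. The 3 conditions did not overlap; Cox8a was 0.18 above Ctr in C2 (limma adjusted p = 0.0119), 0.30 above Ctr in C4 (SE 0.020; adjusted p = 0.000643) and 0.11 above C2 in C4 (adjusted p = 0.0245). With the mean of its probe sets Cox8a was 0.19 above Ctr in C4 (0.00361), and 0.07 above C2 without a call (0.169). Cox6b1 (0.14, 0.0114), Cox6a1 (0.15, 0.0251) and Ndufa4 (0.27, 0.0243), a protein named for complex I and later assigned to complex IV, were also higher in C4. Cox6c was 0.29 higher in C4 on its brightest probe set (adjusted p = 0.0153) and differed by -0.08 on its second (0.642), and the mean of both, 0.11, was not called (0.326). Cox4i1 (0.11, 0.225) and Cox7a2 (0.09, 0.39) were not called in C4. Cox5b differed from Ctr by 0.31 in C2 (adjusted p = 0.0429) and 0.23 in C4 (0.0511).

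Cox5a was the 1 member gene called lower in C4, and its probe sets disagreed. The brightest had levels of 13.35, 13.37 and 13.29 in Ctr, 13.37, 13.38 and 13.27 in C2, and 13.12, 13.07 and 13.05 in C4, a difference of -0.26 in C4 (limma adjusted p = 0.00983). Another probe set was higher than Ctr in C4 by 0.30 (adjusted p = 0.0214) and in C2 by 0.34 (0.0361), and the third differed by -0.08 in C4 (0.364). With the mean of the 3 probe sets the C4 difference was -0.01, so no direction is given for the gene. Of 41 member genes with several probe sets above a mean of 4, the probe sets lay on both sides of Ctr for 15 in C4 and 7 in C2, and Cox5a was the 1 gene called both ways.

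**Figure D3:**
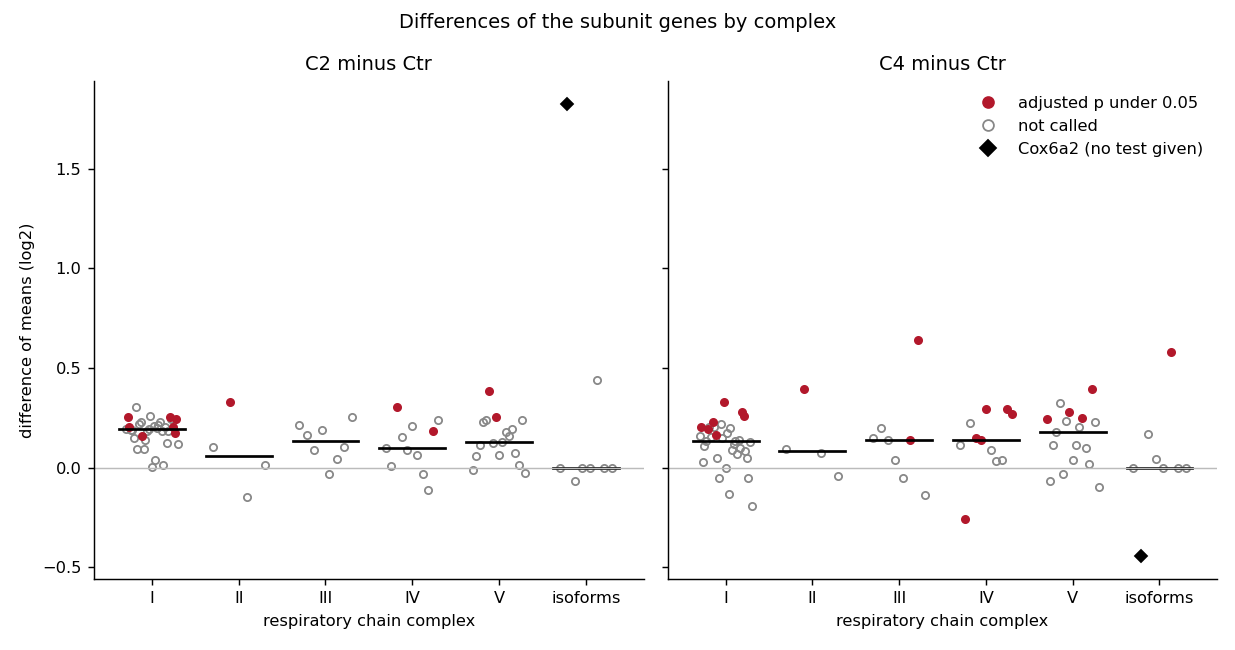
Difference of the condition means from Ctr (log2, vertical axis) for each gene, by complex, with C2 on the left and C4 on the right; red points passed an adjusted p of 0.05, grey circles did not, black bars are medians, and Cox6a2 is a diamond with no test. All 33 complex I genes lie above 0 in C2, and Cox6a2 lies at 1.83 in C2 and -0.45 in C4.

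Cox6a2 encodes the heart and skeletal muscle form of subunit 6a of cytochrome c oxidase, whose widespread form is Cox6a1. The study had picked this gene from the present arrays for measurement by RT-qPCR, so its values are given as a description with no test. The study's text does not name Cox6a2 among the genes that RT-qPCR found raised in C2. A figure legend of the study lists it with upregulated genes on the array plots. On its brighter probe set the levels were 6.19, 5.86 and 6.11 in Ctr, 7.73, 7.95 and 7.95 in C2, and 5.62, 5.73 and 5.47 in C4. The 3 conditions did not overlap: C2 was 1.83 above Ctr, or 3.55-fold, and C4 was -0.45 from Ctr. On its second probe set, Ctr and C4 stayed at the floor (2.27 to 2.29) and the C2 arrays read 4.43, 4.60 and 4.51. With Ctr at the floor, the difference of 2.24 on this second probe set does not measure the size of the change, which was 1.83 on the brighter one. Over the 13 alternative settings the difference of C2 from Ctr ran from 1.73 to 2.03. The value of 2.03 came from the mean of both probe sets, which takes in the second one. The 2 probe sets of Cox6a2 were the member probe sets that reached a difference of 1 from Ctr in either condition, among 27 probe sets of the whole array that did so upwards in C2. The partner Cox6a1 had levels of 14.20, 14.21 and 14.20 in Ctr, 14.40, 14.34 and 14.34 in C2 and 14.32, 14.41 and 14.34 in C4. Its C2 arrays lay 0.15 above Ctr and were not called (limma adjusted p = 0.0543).

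Cox8b, the heart and muscle partner of Cox8a, was the other isoform well above the floor. Its levels were 7.97, 8.08 and 8.08 in Ctr, 8.55, 8.55 and 8.35 in C2, and 8.53, 8.75 and 8.59 in C4. Both conditions lay above every Ctr array; C4 was higher by 0.58 (SE 0.078; limma adjusted p = 0.00788), and C2 by 0.44 without a call (adjusted p = 0.0545). Cox6b2, the testis form of subunit 6b, lay between 4.97 and 5.55 on the 9 arrays and was not called in C4 (0.17, adjusted p = 0.62) or C2 (-0.07). Cox4i2, Cox7b2, Cox8c and Ndufa4l2 were at 2.27 on all 9 arrays, and Cox7a1 at 2.29 on 8 of them. Of 13 marker genes of striated muscle and brown fat, 12 were near the floor, 0 were called in any comparison, and their summed level (sum of log2 levels) ran from 32.55 to 33.48 in Ctr, 32.55 to 32.94 in C2 and 32.23 to 32.81 in C4; Myh7, with a mean of 4.42, was the 1 above 4, and Ckm, Acta1 and Des were at 2.76, 2.27 and 2.27.

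**Figure D4:**
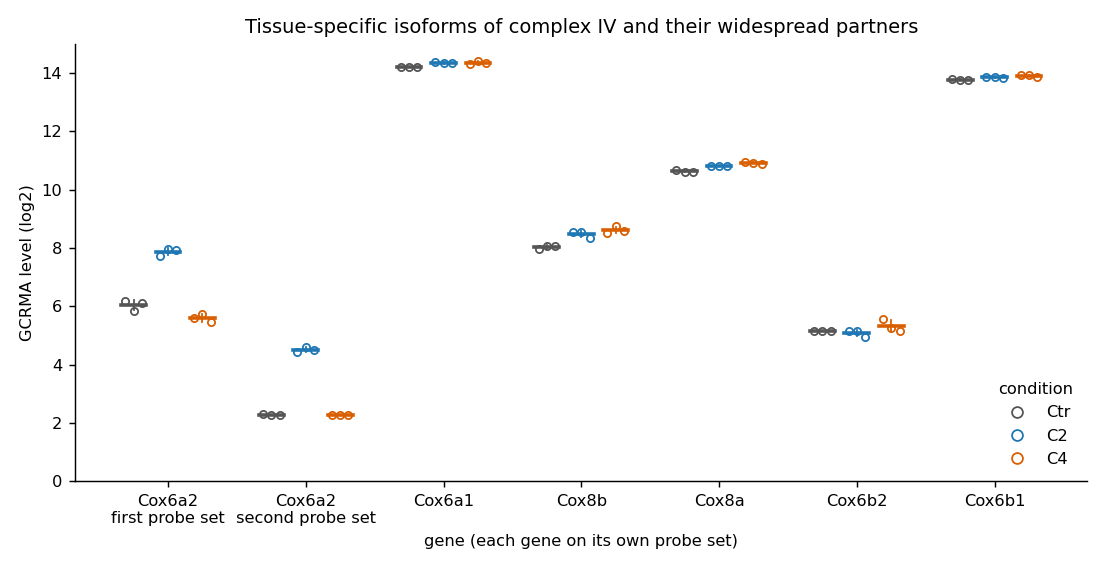
GCRMA level (log2, vertical axis) of Cox6a2 on 2 probe sets, of Cox8b and Cox6b2, and of their widespread partners; open circles are arrays, thick bars means and thin bars 1 SD of 3 arrays. Cox6a2 stands higher in C2 on both probe sets, while Cox8b is above Ctr in C2 and C4; levels of different genes come from different probe sets and are not comparable.

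Promoters are shown for Sdhb, Uqcrh, Cox8a and Cox8b, which were called higher in C4 under all 13 alternatives, and of which Cox8a and Cox8b are partner isoforms. Atp5g3 kept its C4 call under all 13 as well and is not shown. The RefSeq promoter table (GRCm38.p6, 250 bases before to 50 after each start) held 66 of the 81 member genes, with 71 promoters, among them Cox7b2, Cox6b2, Cox7a1 and Cox8b of the isoforms; for Cox6a2 none is printed. The letters CCGGAAG, read on both strands, stand for the core that ETS factors such as GABP recognise, and they are called the ETS motif here. The NRF1 motif is the middle part of the site known for nuclear respiratory factor 1 and was searched on both strands as GCATGCG. An E-box of the kind used by many tissue-specific factors was likewise searched on both strands, spelled CAGCTG. The TATA box was searched on the strand of the gene alone, with the usual letters TATAAA. Capitals mark every match, and no matches overlap.
Sdhb: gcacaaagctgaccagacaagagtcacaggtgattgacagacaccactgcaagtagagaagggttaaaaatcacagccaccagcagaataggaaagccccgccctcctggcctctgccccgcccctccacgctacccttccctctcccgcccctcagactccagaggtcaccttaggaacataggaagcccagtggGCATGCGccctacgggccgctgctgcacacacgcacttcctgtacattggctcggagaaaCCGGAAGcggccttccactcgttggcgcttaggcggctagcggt
Uqcrh: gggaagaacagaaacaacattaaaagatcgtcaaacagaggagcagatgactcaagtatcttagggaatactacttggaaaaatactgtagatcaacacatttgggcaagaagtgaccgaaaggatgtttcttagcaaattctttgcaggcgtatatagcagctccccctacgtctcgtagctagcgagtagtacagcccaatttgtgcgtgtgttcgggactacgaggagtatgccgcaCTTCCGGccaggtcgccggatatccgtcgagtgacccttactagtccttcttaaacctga
Cox8a: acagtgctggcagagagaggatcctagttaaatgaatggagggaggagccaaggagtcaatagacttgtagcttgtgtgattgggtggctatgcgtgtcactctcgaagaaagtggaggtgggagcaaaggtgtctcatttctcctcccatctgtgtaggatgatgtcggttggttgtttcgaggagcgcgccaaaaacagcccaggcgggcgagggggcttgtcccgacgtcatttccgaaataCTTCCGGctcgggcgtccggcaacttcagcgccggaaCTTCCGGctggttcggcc
Cox8b: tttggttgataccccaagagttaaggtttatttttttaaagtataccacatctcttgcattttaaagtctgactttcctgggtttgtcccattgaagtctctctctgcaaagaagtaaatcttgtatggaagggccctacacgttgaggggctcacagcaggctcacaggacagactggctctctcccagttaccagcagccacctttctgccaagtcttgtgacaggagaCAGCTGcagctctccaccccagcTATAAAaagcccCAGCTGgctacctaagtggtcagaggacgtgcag
The coordinates are chr4:140961021-140961320 (plus strand) for Sdhb, chr4:116075021-116075320 (minus) for Uqcrh, chr19:7217567-7217866 (minus) for Cox8a and chr7:140900397-140900696 (minus) for Cox8b. Sdhb held 1 ETS and 1 NRF1 motif, Uqcrh 1 ETS motif and Cox8a 2, while Cox8b held 0 of them, 1 TATA box and 2 E-boxes. The ETS motif was present in 17 of 67 promoters of the widespread members (25.4%) against 8.86% of all 32851 promoters, and the NRF1 motif in 10 of 67 (14.9%) against 3.58%. The E-box was in 5 of the 67 (7.46%) against 16.3%, and the TATA box in 2 (2.99%) against 8.32%; a match describes letters and does not show that a factor binds.

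In C4 against C2 the members did not move one way, with a median of 0.00 over the 81 genes and 33 above and 43 below 0 after rounding to 3 decimals. Of the member probe sets, 6 were higher (2.86% of all probe sets were) and 11 lower (2.39%), 9 of these other than Cox6a2. Above a mean of 10, 6 of 115 members were higher (5.22%) and 9 lower (7.83%). The share of all such bright probe sets was not counted for this comparison. Whether members were called more often than other bright probe sets is therefore not known here. The higher calls included Uqcrh, Atp5a1, Atp5mpl and Cox8a, and the lower ones Atp5g1, Cox5a, Ndufv1, Ndufv3, Uqcrq, Ndufa12 and Ndufs8. Without one array the higher count was 2 (C4 replicate 2, C2 replicate 1 or C2 replicate 2) or 3 (C4 replicate 3), and the lower count 6 (C4 replicate 1, C2 replicate 1 or C2 replicate 2) or 5 (C4 replicate 3).

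Other genes of the pathway were taken from lists by function, where each gene stands on its brightest probe set. Over the listed genes with a mean over 4, the medians of C4 against Ctr were 0.18 for assembly factors of complex I, 0.18 for those of complexes II and III, 0.08 for those of complex IV, 0.07 for those of complex V and -0.03 for regulators of biogenesis, and those of C2 were 0.19, 0.13, 0.16, 0.03 and 0.06, against 0.04 and 0.02 over all probe sets with a mean over 4. The same median of C4 was -0.01 for subunits and carriers outside the symbol rule and 0.03 for the tricarboxylic acid cycle. It was 0.05 for coenzyme Q synthesis and 0.04 for carriers and channels of adenine nucleotides and phosphate. The medians of C2 for these lists were 0.11, 0.10, 0.06 and 0.05 in that order. Among carriers and subunits outside the symbol rule, Cyc1, cytochrome c1 of complex III, was 0.22 higher in C2 (limma adjusted p = 0.0244). Cycs, cytochrome c, fell by 0.43 in C4 (adjusted p = 0.0351), and Atpif1, the inhibitor of ATP synthase hydrolysis, was 0.28 higher in C4 (0.00515). With the mean of its probe sets Cycs differed by -0.19 and kept the call (0.00433), and Atpif1 by 0.39 without one (0.189). In this list of 5 measured genes, 1 was higher and 1 lower in C4, and 1 was higher in C2. Beside the counts of this and the following lists, 3.78% of all probe sets were called higher and 2.51% lower in C4. In C2 these shares were 1.13% and 0.577%, and bright probe sets were called more often.

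Assembly factors of complex I numbered 15 measured genes, of which 0 were called in C4 and 2 were higher in C2: Ndufaf4 (0.16, limma adjusted p = 0.0412) and Ndufaf5 (0.31, 0.0495), each of which kept the call under 3 of the 13 alternatives. Of 10 factors for complexes II and III, Bcs1l, which inserts the Rieske protein, was higher in both C2 (0.50, adjusted p = 0.0106) and C4 (0.31, 0.016), and Uqcc2 in C2 (0.45, 0.0327). Of 22 factors for complex IV, 3 were higher and 2 lower in C4 and 0 were called in C2. Pet100 was higher (0.60, adjusted p = 0.0134), whereas Cox15, which makes haem a, fell by 0.75 on its brightest probe set (0.016) and Higd1a by 0.59 (0.00473). The mean of the Cox15 probe sets differed by -0.17 and was not called (adjusted p = 0.13), while that of Pet100 was 0.38 (0.0217). Of 5 factors for complex V, Tmem70 fell by 0.24 in C4 (adjusted p = 0.0203), and 0 were called in C2. The 1 measured mitochondrially encoded subunit, mt-Nd5, read 14.91 in Ctr, 14.94 in C2 and 14.89 in C4 on average and was not called.

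Of 21 measured regulators of mitochondrial biogenesis, 2 were higher and 2 lower in C4 and 0 were called in C2. Ppargc1a, for the coactivator PGC-1 alpha, differed from Ctr by -0.04 in C4 (limma adjusted p = 0.765) and 0.05 in C2 (0.735), while Ppargc1b, its relative, fell by 0.64 in C4 (0.0241) to near the floor. Polg, the mitochondrial DNA polymerase, was 0.60 higher in C4 (adjusted p = 0.0108) and Polrmt, the mitochondrial RNA polymerase, fell by 0.48 (0.0143), each on its brightest probe set. With the mean of the probe sets Polg was 0.38 higher (0.00338), and Polrmt differed by -0.17 without a call (0.192). Cerox1, a noncoding RNA known to raise complex I subunit transcripts, had levels of 5.75, 6.08 and 6.11 in Ctr, 6.21, 6.28 and 6.46 in C2, and 7.61, 7.71 and 7.84 in C4. The C4 arrays stood above all 6 others, by 1.74 against Ctr (SE 0.118; adjusted p = 0.000667) and 1.41 against C2 (0.00135), and C2 differed from Ctr by 0.33 without a call (0.372).

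In the tricarboxylic acid cycle, 2 of 18 genes were higher in C4, Pdha1 (0.26, limma adjusted p = 0.00916) and Suclg2 (0.27, 0.034), and Suclg1 was higher in C2 (0.19, 0.0346). Coenzyme Q genes gave 1 higher and 1 lower of 12 in C4, Coq10b (0.58, adjusted p = 0.0113) and Coq2, which fell by 0.16 (0.043); the mean of the Coq10b probe sets was 0.33 and was not called (0.0853). Among 13 carriers and channels, the adenine nucleotide carrier Slc25a5 was 0.17 higher in C4 (adjusted p = 0.0116) on its brightest probe set and at -0.10 with the mean of its probe sets, and the outer membrane channels Vdac1 and Vdac3 fell by 0.22 (0.0138) and 0.17 (0.0323). Vdac2 and Vdac3 were higher in C2, by 0.25 (0.00714) and 0.19 (0.0494), and the Vdac3 call in C2 held under 2 of the 13 alternatives.

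Cell type markers moved together with the C4 condition, and their part in the subunit results was not tested. Of 12 stem and progenitor genes, 8 were higher and 1 lower in C4, and their summed level was 114.24 to 114.40 in Ctr, 113.78 to 114.50 in C2 and 118.22 to 119.66 in C4. Astrocyte genes gave 3 higher of 7 in C4 and 1 lower in C2 (summed level 57.15 to 57.75 in Ctr, 57.07 to 57.92 in C2 and 60.90 to 61.95 in C4), among them Aldh1l1 and S100b, while Gfap was near the floor. Oligodendrocyte lineage genes gave 2 higher of 7 in C4 and the same count lower in C2, Cnp and Gpr17 (27.20 to 27.68 in Ctr, 24.77 to 25.78 in C2, 30.20 to 30.63 in C4), with Mbp, Mog, Mag and Mobp at 2.27. Of 8 microglial genes, Cd68 fell in C4 (25.10 to 25.43 in Ctr, 25.12 to 25.19 in C2, 22.44 to 22.72 in C4), and Aif1, Cx3cr1, Itgam, Ptprc, P2ry12 and C1qa were at 2.27. Neuronal genes gave 1 lower of 11, Gad1 (42.91 to 43.02, 42.54 to 42.74 and 42.54 to 43.20), and 0 of 8 endothelial and pericyte genes were called (19.94 to 20.09, 19.94 to 20.10 and 19.99 to 20.17). The 3′ minus 5′ control signal of Gapdh, a measure of RNA integrity, had means of -0.31 ± 0.030 for the Ctr arrays, -0.39 ± 0.0099 for C2 and -0.34 ± 0.058 for C4 (SD, n = 3). The same signal of Actb had means of 0.927 ± 0.030, 0.925 ± 0.0093 and 0.868 ± 0.080 in that order, with the C4 arrays between 0.808 and 0.958; the part of either in the results was not tested.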

How the data were processed

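Total RNA of aOBSC cultures was labelled with biotin and hybridised to 9 Affymetrix mouse expression arrays. Per the labels the deposited values are log2 levels computed by the authors with GCRMA, which subtracts a sequence-based background and normalises quantiles across arrays, and leaves 12350 probe sets at one value on all 9 arrays; a genome build is not given in the sources used here. Of 45101 probe sets, 64 controls were left out. Groups followed the labels, with 3 arrays each, which limits the precision; the labels call them biological replicates. Symbols came from the platform annotation (34945 probe sets with 1 symbol, 932 with several, 9160 with none); all 164 members matched RefSeq, and none has another current symbol.

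A mean per condition was fitted to all 9 arrays with limma 3.58.1 in R 4.3.3 (eBayes with an intensity trend, Benjamini-Hochberg over 45037 probe sets, call at an adjusted p under 0.05; 6 residual degrees of freedom). The methods of the study give a threshold of 1 on the log2 scale, used here as an alternative. Members and lists were chosen with earlier results of these data known. Named genes were the isoforms and their partners, the members with the smallest p (12 for C4 against Ctr, 6 for each other comparison), the 2 largest C4 differences per complex, 3 genes per pathway list, Cerox1 and Ppargc1a; any further gene named was chosen after its values were seen. Other settings tried were no trend, a robust prior, a filter on dim probe sets (over 4 on at least 3 arrays), only the arrays compared, a replicate block, median centring, fewer probe sets, gene means and leaving out each array. The fit was tested on simulated data.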

Additional observations from a re-analysis of the deposited data

How the results depend on the processing

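The direction of the member medians was kept in C4 and C2 against Ctr under every setting run; centring the arrays on their median lowered the C4 median from 0.13 to 0.0851, and in C2 the median of 0.16 became 0.1293 without the _s_at, _x_at and _a_at probe sets and 0.1215 with gene means. Counts of called probe sets moved far more. In C4 against Ctr the 28 higher member probe sets became 9 with a robust prior, 56 after the filter on dim probe sets, 13 with only the arrays compared and 0 by a difference of at least 1, and 16 to 27 when single arrays were left out. The 1 lower call became 3 with the filter, 2 with only the arrays compared, 4 after centring, and 0 by a difference of at least 1 or without the _s_at, _x_at and _a_at probe sets. In C2 against Ctr the 20 higher became 2 with a robust prior, 46 with the filter, 7 with only the arrays compared, 2 by a difference of at least 1, 10 without the _s_at, _x_at and _a_at probe sets and 4 to 16 without single arrays. In C4 against C2 the 6 higher became 2 with a robust prior, 0 by a difference of at least 1 and 2 to 4 without single arrays, and the 11 lower became 4 with a robust prior, 19 with the filter, 6 with only the arrays compared, 2 by a difference of at least 1, 1 without the _s_at, _x_at and _a_at probe sets and 5 to 9 without single arrays. The filter tests fewer probe sets; for the other moves the cause was not tested.

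Replicate numbers are shared between conditions, but the deviations of same-numbered arrays correlated by -0.041 to 0.136, so the numbers were not read as pairs. With the replicate number as a block, the counts were 21 higher in C4 against Ctr, 3 higher in C2 against Ctr and 5 lower in C4 against C2.

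Of the named member genes called in C4 against C2, Cox6a2 left aside, 3 of 6 kept the call under all 13 alternatives (Atp5g1, Cox5a and Uqcrh). With gene means, 7 of the 33 calls of named genes in C4 against Ctr were lost (Atpif1, Coq10b, Cox15, Cox5a, Cox6c, Ndufs4 and Polrmt), and 2 of 16 in C2 against Ctr (Atp5g1 and Ndufaf4) and 5 of 19 in C4 against C2 (Atpif1, Coq10b, Cox8a, Higd1a and Slc25a5). Slc25a5 changed direction in C4 with gene means, to -0.099. Gene means give no count of probe sets. They take in probe sets near the floor, which show little difference and so can make the mean difference of a gene smaller. The many values at the floor limit what can be seen for dim genes, and at 3 arrays per condition a call rests on a small spread.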
